A study of Mus musculus with 8 samples.

Results

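The regions described here are the wide peaks of 5-hydroxymethylcytosine that the authors listed outside genes in mouse embryonic fibroblasts (MEFs). They were chosen from the MEF peak list by 3 deposited values: the class Intergenic, a length of at least 600 bp and at most 500 sequence tags at the summit. This gave 11202 of 176853 MEF peaks, which is 8.75% of the 128025 intergenic ones. The other 116772 intergenic MEF peaks with at most 500 tags were shorter than 600 bp and are called the narrower peaks.

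5-hydroxymethylcytosine (5hmC) is made when TET enzymes oxidise methylated cytosine, and it can be a step towards loss of the methyl group. It is abundant in neurons, and away from promoters it is often found over enhancers and gene bodies. In hMeDIP-seq, DNA fragments that carry 5hmC are captured with an antibody and sequenced, and a peak is a place where such fragments pile up over a background.

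All cells came from ICR mice and are labelled with passages 3 to 5. There was 1 hMeDIP library each of MEFs from E13.5 embryos (the submitters' negative control), of MEF-derived induced neurons at 1, 3, 5 and 7 dpi, and of cultured hippocampal primary neurons from pups 1 day old (the positive control). The labels used here name neither the factors that converted the fibroblasts nor what dpi stands for. Each group was 1 library, so no comparison has a replicate check or a p-value, and the 95% intervals below cover counting error only. The sources used here give no total of reads for any library. The other 5 lists held 262, 1238, 1100, 1579 and 549 peaks, in the order 1, 3, 5 and 7 dpi and primary neurons.

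Reference sequence was at hand for the stretches of wide peaks that coincide with an annotated RefSeq promoter window, the 250 bases before and 50 bases after a transcription start. Of 32851 such windows 45 met a wide peak, and 18 windows of 15 genes lay wholly inside one. Those 18 held a median of 3.5 CpG (1 to 14), against 7 over all windows, where CpG is the pair of bases on which 5hmC is mostly found. All 18 belong to predicted genes (symbols of Gm and digits), and Gm35823 and Gm34627 have overlapping windows among them. No wide summit lay closer than 2.01 kb to the start of its assigned gene, while all windows were not limited in that way. The same values are not at hand for narrower peaks, so neither the 45 nor the CpG content is read as a trait of wide peaks. The 4 windows printed here were chosen after their values were seen. They are the 2 that lie in peaks which recurred in another library, the one with the most CpG, and Gm30052, 1 of 3 that tie at the fewest. The sequences are those of RefSeq GRCm38.p6 (the assembly of mm10), printed 5′ to 3′ on the gene's strand with each CpG in capitals.
Gm36734, chr13:71020372-71020671, minus strand: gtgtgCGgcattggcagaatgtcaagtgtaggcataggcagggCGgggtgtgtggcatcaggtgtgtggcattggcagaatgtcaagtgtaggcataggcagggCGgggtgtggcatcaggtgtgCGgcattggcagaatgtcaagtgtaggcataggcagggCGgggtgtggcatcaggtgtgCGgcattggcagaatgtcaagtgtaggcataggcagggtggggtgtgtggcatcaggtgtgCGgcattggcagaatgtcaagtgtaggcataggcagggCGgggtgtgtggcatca
Gm51571, chr8:55114679-55114978, plus strand: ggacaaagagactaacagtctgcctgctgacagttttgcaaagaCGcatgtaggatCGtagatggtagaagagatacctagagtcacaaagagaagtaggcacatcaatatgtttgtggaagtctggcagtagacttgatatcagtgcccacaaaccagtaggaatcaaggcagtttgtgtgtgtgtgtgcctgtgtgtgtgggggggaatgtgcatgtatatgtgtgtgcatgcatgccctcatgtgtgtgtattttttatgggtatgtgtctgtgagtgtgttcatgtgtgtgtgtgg
Gm34931, chr5:114699468-114699767, minus strand: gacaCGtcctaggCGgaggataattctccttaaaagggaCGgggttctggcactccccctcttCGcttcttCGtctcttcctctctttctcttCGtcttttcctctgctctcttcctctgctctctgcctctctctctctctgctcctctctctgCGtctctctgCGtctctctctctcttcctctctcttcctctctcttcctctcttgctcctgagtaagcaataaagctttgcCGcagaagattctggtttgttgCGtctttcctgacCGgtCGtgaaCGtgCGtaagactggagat
Gm30052, chr8:113676409-113676708, minus strand: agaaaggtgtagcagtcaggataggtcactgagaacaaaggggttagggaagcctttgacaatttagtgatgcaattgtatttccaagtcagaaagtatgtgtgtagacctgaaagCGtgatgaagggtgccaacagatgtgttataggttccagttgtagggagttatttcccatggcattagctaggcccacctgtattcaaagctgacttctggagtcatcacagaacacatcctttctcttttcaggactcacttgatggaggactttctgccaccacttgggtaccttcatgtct

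The Gm36734 window lay in a wide peak of 1089 bp with a fold enrichment of 6.79 and 99 tags at the summit, which met a peak in 3 of the other 5 lists. Its sequence is a tandem repeat: shifted against itself by 120 bases, 71.7% of its bases were equal, a value that 0.0974% of all windows reached at their best shift of 10 to 150 bases. The median over all windows was 34.6%. The Gm51571 window, with runs of tg, lay in a peak of 650 bp (fold enrichment 2.64, 134 tags) that met 1 other list, and 40.6% of its bases were equal at a shift of 12. The Gm34931 window held 14 CpG in a stretch rich in c and t, inside a peak of 665 bp (fold enrichment 5.55, 43 tags). The Gm30052 window held 1 CpG, inside a peak of 694 bp (fold enrichment 7.81, 61 tags). The peaks of these last windows were on no other list.

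The wide peaks are the tail of a steep length distribution. Of all intergenic MEF peaks 86.3% had exactly 480 bp, the shortest length in the list. The wide peaks had a median length of 765 bp, with quartiles of 672 and 900 bp and a longest of 2403 bp, and together they covered 8.98 Mb against 56.4 Mb for the narrower ones. Nothing in the list sets 600 bp apart: 48 wide peaks had 600 bp and 50 peaks just outside had 599 bp, with median fold enrichments of 7.31 and 6.66. At the limit on tags the highest values inside were 375, 436 and 471, and those just outside were 517, 519 and 532, up to 283516 tags. The 35 intergenic peaks left out by that limit alone met another list in 33 cases.

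**Figure D1:**
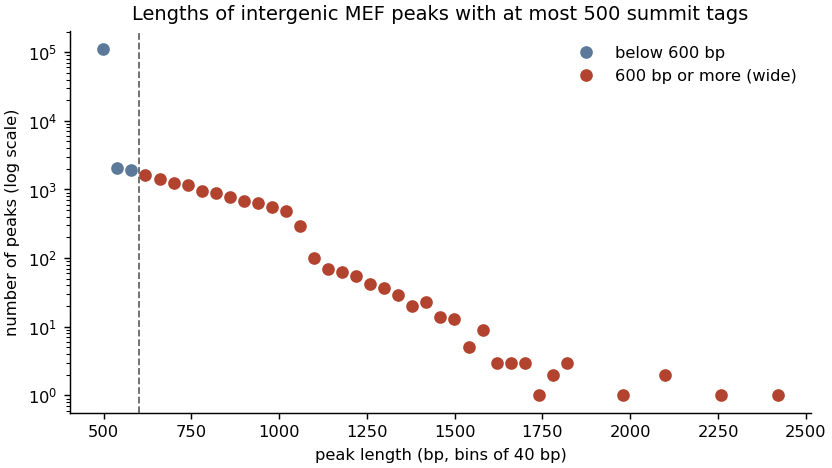
Number of intergenic MEF peaks with at most 500 summit tags (log scale) against peak length in bins of 40 bp, with the limit of 600 bp dashed. Most peaks sit at 480 bp, and the counts fall without a break at 600 bp to the longest, 2403 bp.

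Wide peaks were also taller. The median was 59 tags at the summit (22 to 471) and a fold enrichment of 6.81 (1.51 to 23.6), against 36 tags and 4.37 for the narrower peaks. Since the limits on length and tags chose the peaks, these values are a description. The fold enrichment is the authors' own value for each peak. The background behind it was inferred here as the summit tags plus 1, divided by the fold enrichment. The sources used here do not name the authors' formula, so all background values below rest on that inference. That background took a single lowest value, 7.93 tags, for 65.1% of wide and 72.2% of narrower peaks, and for 3.54% of wide peaks it was at least 2 times as high, up to 249 tags.

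Of the 24 wide peaks with a fold enrichment of 15 or more, 5 met another list. The highest with an assigned gene other than a predicted or Riken one had a fold enrichment of 23.6, with 1284 bp and 186 tags, and lay 12.4 kb upstream of D5Ertd579e (chr5:36707559-36708842). The same place carried a peak of 4.67 at 5 dpi and of 5.96 at 7 dpi, and the remaining lists had none there. Next came a peak assigned to Zc3h15, which encodes a zinc finger protein, from 716 kb upstream (22.8, 180 tags). A peak 4.44 kb upstream of Slc22a8, an organic anion transporter, had 19.3 and 152 tags, and one assigned to Prim2, a subunit of DNA primase, had 19.2 and 151 tags. These last 3 met no peak of another library. The other 6 of the 10 highest, assigned to Zfp11, A1bg, Arhgap20, Olfr1386, St6galnac5 and Olfm4, ranged from 15.8 to 18.02, and 1 of them recurred, that of Zfp11 at 3 dpi with 5.12. Leaving out predicted and Riken genes removes peaks that recurred, such as that of 3110001I22Rik, with 21.2 and 172 tags, which met all 5 other lists.

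The 5 longest wide peaks were of different kinds. The longest, 2403 bp, lay 132 kb upstream of Prox1, a homeobox transcription factor, and the next, 2271 bp on the Y chromosome, 17.5 kb upstream of Erdr1, a gene of the pseudoautosomal region. With the next in length, 2110 bp on the X chromosome and assigned to Gm14346, these 3 had fold enrichments of 3.66, 1.76 and 6.51 over backgrounds of 34.4, 158 and 22.7 tags, and they met 5, 4 and 3 other lists. The peaks of Pcdh17 (2089 bp, 11.2) and Pdp1 (1986 bp, 8.82) stood on the lowest background and met none.

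Few wide peaks were seen again in another library. Of 11202, 29 met a peak at 1 dpi, 145 at 3 dpi, 149 at 5 dpi, 170 at 7 dpi and 96 in primary neurons, by an overlap of at least 1 bp. These were 0.259% (0.173 to 0.372), 1.29% (1.09 to 1.52), 1.33% (1.13 to 1.56), 1.52% (1.299 to 1.76) and 0.857% (0.695 to 1.046), beside 0.0695, 0.29, 0.29, 0.347 and 0.177% of all intergenic MEF peaks. Among the narrower peaks the shares were 0.0283, 0.158, 0.160, 0.204 and 0.0754%, so the wide ones recurred 7.45 times (7 dpi) to 11.4 times (primary neurons) as often, and no pair of intervals overlapped. The 5 lists hold unequal numbers of peaks, so their order is not read as a course over time.

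**Figure D2:**
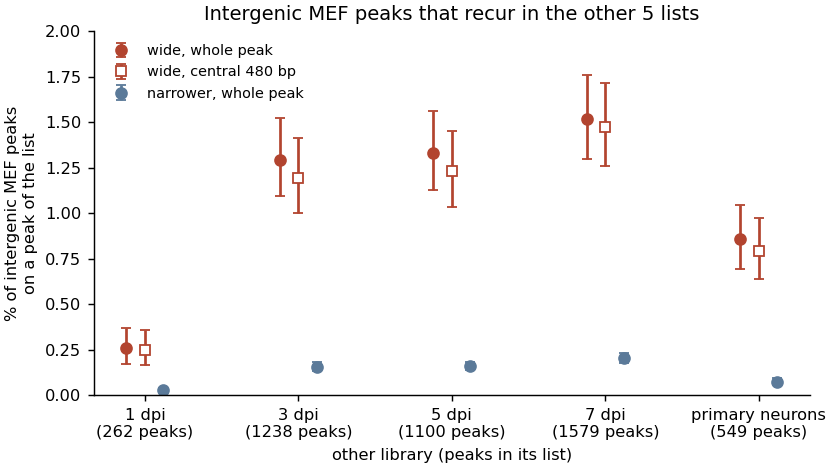
Share of intergenic MEF peaks on a peak of each other library, for wide peaks taken whole (filled, red), wide peaks cut to their central 480 bp (open) and narrower peaks (blue), with exact 95% intervals. The wide shares run from 0.259 to 1.52% and stay above the narrower ones, at 0.0283 to 0.204%, in all 5 lists.

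Cutting all peaks to one width changed these shares little. With every MEF peak cut to the 480 bp around its centre, 0.250, 1.20, 1.23, 1.47 and 0.795% of the wide peaks still met the 5 lists. Where a wide peak met another, the median distance between their summits was 113 bp at 1 dpi and 141 to 206.5 bp elsewhere, and 32.3 to 48.3% of summits lay within 100 bp of each other.

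Read from the other side, the wide MEF peaks held 30 (11.5%), 142 (11.5%), 148 (13.45%), 168 (10.6%) and 98 (17.9%) of the peaks of the 5 lists. Among the peaks of these lists that met any intergenic MEF peak, 33.3% at 1 dpi and 39.9 to 45.0% elsewhere met a wide one. Wide peaks made up 8.75% of intergenic MEF peaks by number, and 8.98 of their 65.4 Mb by length. A longer peak meets another more readily by 1 bp, so the share by number alone overstates the difference.

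In all, 240 wide peaks (2.14%, 1.88 to 2.43) met a peak in at least 1 other library, against 0.539% of all intergenic MEF peaks and 0.344% of the narrower ones. Of the 240, 91 were shared by induced and primary neurons, 144 were seen in induced neurons and not in primary neurons, and 5 in primary neurons alone. The induced neurons had 4 lists, of 262 to 1579 peaks, and the primary neurons had 1, of 549. This split is therefore not read as a difference between the cells. The peaks at 3, 5 and 7 dpi often coincided, as 88 wide peaks met all of those 3 lists. There were 73 wide peaks on 1 other list, 63 on 2, 38 on 3, 54 on 4 and 12 on 5.

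The 12 wide peaks found in all 6 libraries were assigned to 3110001I22Rik, 1700012D14Rik, Nudt7, 1700049E22Rik, Rcan2, Dcc, LOC100861615, Prox1, Gm21637 and 2700054A10Rik, and 2 of them to Gm2933. At 103 kb upstream of Nudt7, which encodes a peroxisomal hydrolase of coenzyme A (chr8:114029690-114030647), MEFs had a fold enrichment of 5.92. The value was 3.66 at 1 dpi, 8.70 at 3 dpi, 8.79 at 5 dpi, 11.4 at 7 dpi and 8.24 in primary neurons. At 46.4 kb upstream of Rcan2, a regulator of calcineurin (chr17:43755049-43755773), it was 4.76 in MEFs and 5.17, 5.86, 7.37, 7.94 and 6.53 in the others in the same order. The 1 dpi library was below MEFs for Nudt7 and above them for Rcan2, and the other 4 were above MEFs at both places.

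At the 2403 bp peak of Prox1 (chr1:190300991-190303393) the values began at 3.66 in MEFs, with 4.86, 7.86, 6.87 and 5.91 on the 4 days in turn and 4.73 in primary neurons. The MEF peak there was longer than that of 1 dpi (704 bp) and of primary neurons (771 bp), and shorter than those of 3, 5 and 7 dpi (2828, 3410 and 3540 bp). The peak assigned to Dcc, a netrin receptor that guides axons, from 422 kb upstream had 3.94 in MEFs, 6.02, 7.17, 5.27 and 6.31 on the 4 days and 4.32 in primary neurons, so MEFs were lowest of the 6. At LOC100861615 the values ran from 3.78 in MEFs through 6.78, 10.3, 10.7 and 13.0 on the 4 days to 5.91 in primary neurons.

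Over the 12 places, fold enrichment had a median of 3.94 for the MEF list, of 5.10, 7.58, 7.12 and 8.51 for the 4 days in turn and of 5.00 for primary neurons. It was above the MEF value at 7, 12, 9, 10 and 8 of the 12 places. Both Gm2933 peaks met the same single peak at 3 dpi, of 5190 bp, as well as shared ones at 5 dpi and in primary neurons, so they are not independent places. A place had to pass the threshold in every library to be among the 12, and the depth of each library was not given, so no difference between libraries is read from these values.

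Over all backgrounds, recurrence differed with length in 2 places, neither of them at 600 bp. Of MEF peaks with 480 bp, 0.256% (0.227 to 0.288) met another list. The share was 1.89% (1.57 to 2.26) already at 481 to 599 bp, and it stayed at 1.84, 1.89 and 1.88% at 600 to 699, 700 to 799 and 800 to 999 bp. At 1000 to 1199 bp it was 2.36% (1.52 to 3.49), and at 1200 bp or more 31 of 267 peaks, or 11.6% (8.03 to 16.1), recurred. Over all backgrounds the difference between wide and narrower peaks thus lay mostly between those of 480 bp and all longer ones. On the lowest background value of 7.93 tags the shares were not level: 0.1204% at 480 bp, 0.314% (0.162 to 0.547) at 481 to 599 bp, 0.346% (0.149 to 0.680) at 600 to 699 bp, 1.22% (0.767 to 1.84) at 700 to 799 bp and 0.466% (0.233 to 0.832) at 800 to 999 bp. They were 0.309% (0.0374 to 1.11) at 1000 to 1199 bp and 5.59% (2.59 to 10.3) at 1200 bp or more.

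**Figure D3:**
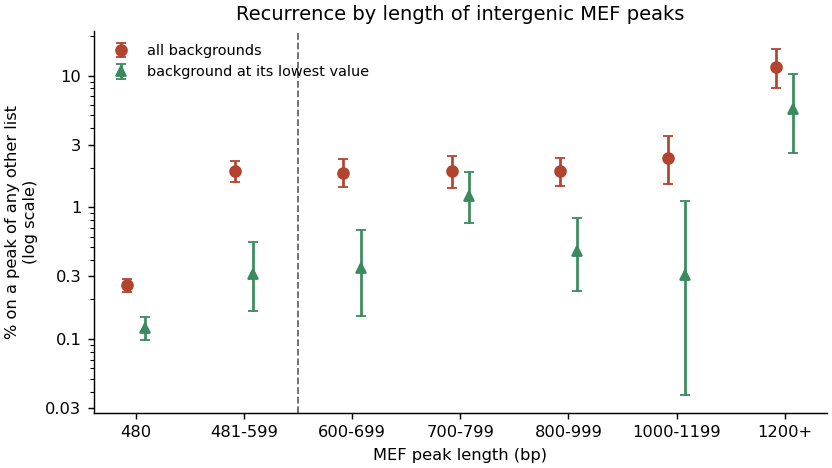
Share of intergenic MEF peaks on a peak of any other list (log scale) by MEF peak length, for all peaks (circles) and for those on the lowest background (triangles), with exact 95% intervals and the limit of 600 bp dashed. The circles are level from 481 to 999 bp, between 1.84 and 1.89%, and reach 11.6% at 1200 bp or more, while the triangles vary from 0.314 to 1.22% over the same lengths and reach 5.59%.

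Recurrence also went with the background behind a peak. On the lowest background 52 of 7287 wide peaks met another list, 0.714% (0.533 to 0.935), against 0.129% (0.106 to 0.156) of the narrower ones. On a higher background it was 188 of 3915 wide peaks, 4.80% (4.15 to 5.52), and where the background was at least 2 times the lowest value, 98 of 396, 24.7% (20.6 to 29.3). For the narrower peaks these 2 shares were 0.904% (0.804 to 1.01) and 6.66% (5.59 to 7.87), so both kinds of peak recurred more on a higher background. The median background was 7.93 tags for wide peaks on no other list, 10.5, 14.7, 14.2 and 15.3 for those on 1 to 4, and 24.8 for those on all 5. Only 21.7% of the 240 recurrent wide peaks stood on the lowest value, against 66.0% of those on no other list. Of the narrower peaks on the lowest value, 80534 of 84359 had 480 bp. The part of the background in the recurrence was not tested.

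**Figure D4:**
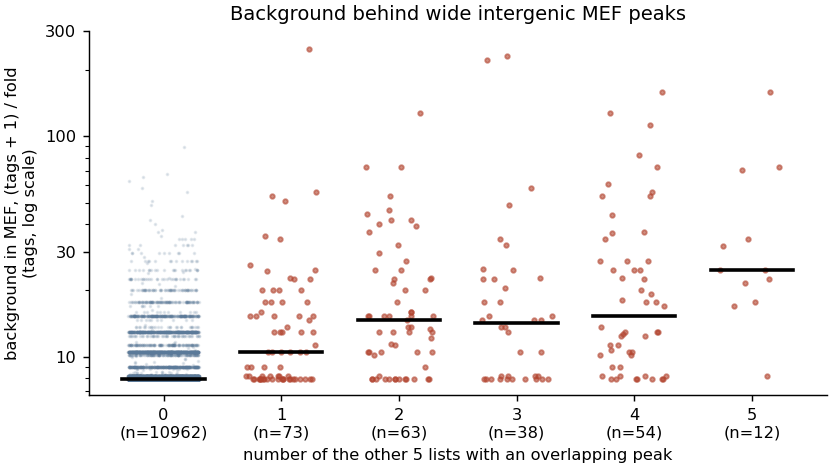
Background in MEFs, in tags on a log scale, behind each wide peak (points) by the number of other lists it met, with medians as black bars. The median is 7.93 tags on no other list and 24.8 on all 5, and the points at 0 lists gather on a few repeated values.

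Peaks of 481 to 599 bp and wide peaks compared differently from one band of fold enrichment to the next. Below a fold of 4, 8.38% (6.48 to 10.6) of 740 wide peaks recurred, 12.4% (9.42 to 15.8) of 437 peaks of 481 to 599 bp and 0.290% of those of 480 bp. From 4 to 6 the shares of wide and 481 to 599 bp peaks were 2.24% (1.74 to 2.84) and 1.88% (1.31 to 2.60), and from 6 to 8 they were 1.25% (0.933 to 1.63) and 0.651% (0.379 to 1.04). From 8 to 10 they were 1.29% (0.872 to 1.84) and 1.12% (0.579 to 1.95), and from 10 to 15 they were 2.52% (24 of 954, 1.62 to 3.72) and 0.319% (1 of 313, 0.00809 to 1.77). The wide share was thus the lower below 4 and the higher in the other 4 bands, with overlapping intervals in each, and the difference was not tested. At a fold of 15 or more, 5 of 24 wide peaks recurred, 20.8% (7.13 to 42.2). Wide peaks with a fold below 4 stood on the lowest background in 27.2% of cases, and peaks of 481 to 599 bp in 9.38%. From 6 to 8 these shares were 70.5 and 70.6%. Below 4 the compared peaks thus also differed in background, and its part was not tested.

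In distance to genes the wide peaks were close to the narrower ones. The summit lay a median of 93.0 kb (89.5 to 96.8) from the assigned transcription start site (TSS), against 88.0 kb (86.9 to 89.2) for the narrower peaks. Within 10 kb lay 9.73% of wide and 9.67% of narrower peaks, and within 100 kb 51.8 and 53.0%. The summit was upstream of the TSS in 60.2 and 59.7%. The closest wide peaks were 2.01 kb upstream of Slc16a5 and of Ankrd40 and 2.02 kb downstream of the TSS of Olfr736, and the farthest was 2166 kb from Olfm4.

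**Figure D5:**
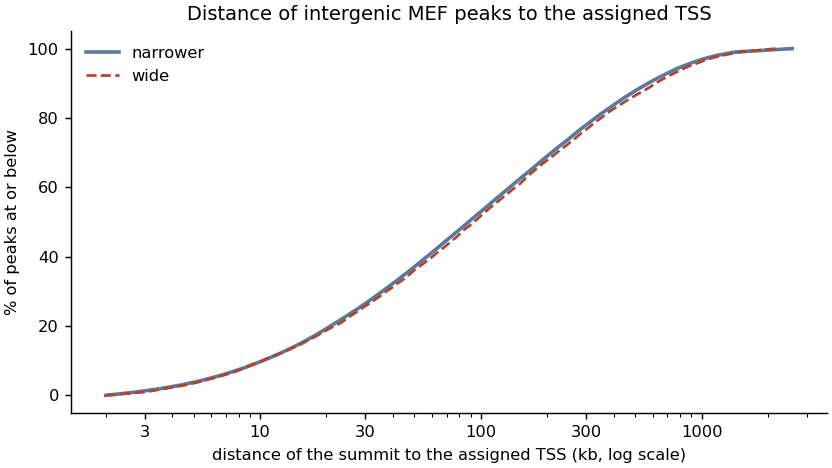
Percent of wide (dashed) and narrower (solid) intergenic MEF peaks at or below a given distance from summit to assigned TSS, in kb on a log scale. The curves run almost on top of each other, with medians of 93.0 and 88.0 kb.

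The wide peaks that recurred lay nearer to a TSS. Their median distance was 53.5 kb (41.9 to 69.4), against 94.4 kb (90.6 to 98.2) for wide peaks on no other list. The same was found on the lowest background, with 55.1 kb (28.0 to 82.3) against 91.8 kb (87.6 to 96.8). It was not particular to wide peaks: narrower peaks had 57.4 kb (44.1 to 68.4) on another list and 88.2 kb on none.

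The class Intergenic did not mean that no gene was there. The summit of 1502 wide peaks (13.4%) lay inside the span of a gene that the deposited lists themselves name, and in 89.1% of these the peak was assigned to a gene of another name. By RefSeq GRCm38.p6, 27.0% of wide and 29.5% of narrower peaks lay inside an annotated gene. For wide peaks 18.3% lay in a protein-coding gene and 8.09% in a long noncoding RNA gene, beside 20.1 and 8.92% for the narrower ones. The host genes by the deposited spans were led by Dmd, which encodes dystrophin, with 13 wide among 113 intergenic peaks, and Ctnna3, an alpha-catenin of cell junctions, with 12 of 84. Grm8, a glutamate receptor, held 9 of 60. Fhit, 1700112E06Rik, Cntnap2 and Mgat4c held 8 each, of 62, 52, 79 and 36. The gene most often assigned to the peaks in Dmd was Tsga8, and to those in Ctnna3 it was Lrrtm3.

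Along the chromosomes the wide peaks were spread out. The median gap between neighbours was 138 kb (quartiles 49.9 and 310 kb), and 1323 wide peaks (11.8%, 11.2 to 12.4) had another within 10 kb. The intergenic peak that followed a wide one was wide in 8.96% of cases (8.44 to 9.51), against 8.73% (8.57 to 8.89) after any other intergenic peak, and these intervals overlapped. Of 2624 bins of 1 Mb, 115 held no wide peak, the median was 4 and the highest was 16. That bin, on chromosome 4 from 12 to 13 Mb near Triqk and Fam92a, had 16 wide among 63 intergenic peaks, and the bin of Cdh8 on chromosome 8 from 99 to 100 Mb had 13 of 48.

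The few dense clusters were of another kind. Joined by gaps of at most 10 kb, 9879 wide peaks stood alone, 584 pairs and 41 triplets formed, and 7 clusters held 4 or more. Of wide peaks standing alone 1.67% (1.43 to 1.94) met another list, in pairs 3.08% (2.17 to 4.24), in triplets 13.8% (8.26 to 21.2), and in the 7 large clusters 22 of 32, or 68.8% (49.99 to 83.9). Peaks of a cluster can meet the same peak of another list, as those of Gm2933 did. They are not independent, and the intervals for clustered peaks treat them as if they were. The large clusters had a median background of 17.7 tags and 15.6% of their peaks on the lowest value, against 65.5% for peaks standing alone.

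The largest cluster held 7 wide peaks within 22.1 kb on the X chromosome near Gm2933 (chrX:33908745-33930869), and 6 of the 7 recurred. A second on X near Gm5925 (chrX:4536432-4545736) held 5, all recurrent, and another near Gm21637 held 4, all recurrent. The 4 beside Erdr1 on the Y chromosome (chrY:90763597-90778495) recurred too, over backgrounds of 53.5 to 158 tags. Near Gpm6a, a neuronal membrane glycoprotein, on chromosome 8, 3 of 4 recurred over 17.7 to 58.2 tags. In contrast, none of the 4 wide peaks near Akr1e1, an aldo-keto reductase (chr13:4843669-4856674), and none of the 4 near Lrrn1, a neuronal leucine-rich repeat protein (chr6:107435944-107454190), met another list. Those 8 stood on backgrounds of 7.93 to 10.5 tags with fold enrichments of 4.66 to 10.6.

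By chromosome, wide peaks made up 7.53% of the intergenic peaks of chromosome 11 to 9.40% of those of chromosome 14, and 12.3% (8.82 to 16.4) on Y, where 38 of 310 were wide. Recurrence differed more: 4.85% (3.29 to 6.85) of the 619 wide peaks on X and 9 of 38 on Y met another list, against 0.837 to 3.58% on the autosomes. On X, 15 of the 30 recurrent wide peaks lay in the 3 clusters near Gm2933, Gm5925 and Gm21637, and without those clusters 15 of 603 recurred, 2.49% (1.40 to 4.07), within the range of the autosomes. On Y, 5 of 34 remained without the Erdr1 cluster. The narrower peaks recurred in 0.288% of cases on X, within the range of the autosomes, and in 6.27% on Y, above it, so the high share on Y was found for both kinds of peak.

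The authors assigned the wide peaks to 5425 genes, 33.4% of the 16223 genes with any intergenic MEF peak. Of these, 3273 genes had 1 wide peak, 499 had at least 5 and 9 had at least 20. The genes with the most wide peaks also had many intergenic MEF peaks of any length. Lrrc4c, a synaptic adhesion molecule, had 26 wide among its 256 intergenic MEF peaks, up to 2026 kb away, and Cdh8, a classical cadherin of neurons, had 26 of 198. Dsel, an epimerase of dermatan sulfate synthesis, had 24 of 194, Pcdh17, a protocadherin, 20 of 157, Cdh20, another cadherin, 20 of 151, and Ppp6c, a phosphatase subunit, 20 of 142. Slc39a10, a zinc transporter, Ncam2, a neural cell adhesion molecule, Fam5c and Tmeff2 had 16 to 19. As a share of a gene's own intergenic peaks, these 10 ran from 10.2% (Lrrc4c) to 14.1% (8.82 to 20.9, Ppp6c), beside 8.78% over all genes. The 10 were picked for having the most wide peaks, which favours high shares. Their shares are therefore a description, and no interval is set against the 8.78%.

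Those 10 genes had 2 recurrent wide peaks in all, 1 of the 20 of Cdh20 and 1 of the 17 of Ncam2. Over all wide peaks 2.14% recurred, so such counts per gene are not read as a trait of these genes. Among genes with at least 30 intergenic peaks, chosen here after their values were seen, the share of wide ones was 22.5% (10.8 to 38.5) for Foxp1, a forkhead transcription factor with 9 of 40, and 21.7% (10.9 to 36.4) for Irs1, an insulin receptor substrate with 10 of 46. None of the 9 wide peaks of Foxp1 and the 10 of Irs1 recurred, which are too few to set against the 2.14%.

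Gene groups were set beside all genes, of which 33.4% had a wide peak and whose intergenic peaks were wide in 8.78% of cases. Of 28 mesenchymal transcription factors with an intergenic MEF peak 23 (82.1%) had a wide one, and wide peaks made up 10.6% (7.97 to 13.8) of the group's intergenic peaks. Tbx18, a T-box factor, had 6 of 33, and the homeobox factors Meox2 and Msx2 had 5 of 31 and 4 of 20. Of 34 genes of fibroblast identity and extracellular matrix 16 (47.1%) had one (9.82% of peaks wide, 6.57 to 14.0), with Col3a1, a fibrillar collagen, at 5 of 24 and Nt5e, the surface nucleotidase CD73, at 4 of 16. For both groups the interval of the wide share includes 8.78%.

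On the neuronal side, 14 of 23 pan-neuronal genes had a wide peak (7.97% of intergenic peaks wide), led by Nova1, a neuronal splicing factor, with 10 of 105. So did 19 of 30 neurogenic transcription factors (8.42%), with Pou3f2 at 7 of 96, 19 of 32 genes of glutamate receptors and the excitatory synapse (8.82%), with Lrrtm1 at 13 of 148, and 23 of 40 axon guidance genes (8%), with the ephrin receptor Epha7 at 14 of 142. Cadherins and protocadherins had 182 wide among 1859 peaks (9.79%, 8.48 to 11.2). The intervals of all 5 include 8.78%.

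Markers of other cells had a wide peak in 8 of 13 endothelial genes (13.0% of peaks wide, 7.27 to 20.8), in 2 of 6 of microglia and blood (12.5%, 1.55 to 38.3), in 6 of 12 of astrocytes and oligodendrocytes (7.41%, 3.25 to 14.1) and in 6 of 12 of skeletal muscle (6.36%, 2.60 to 12.7). Genes of DNA modification had one in 5 of 17 cases (5.92%, 2.87 to 10.6), with Tet2, one of the enzymes that make 5hmC, at 5 of 37. Hox genes had one in 2 of 13 (7.14%, 1.498 to 19.5), imprinted genes in 9 of 28 (7.17%, 4.16 to 11.4), housekeeping genes in 5 of 11 (16.2%, 6.19 to 32.0) and keratins in 12 of 60 (9.85%, 5.35 to 16.3). All these intervals include the 8.78% of all genes. Olfactory receptors had one in 154 of 792 (9.87% wide, 8.58 to 11.3) and vomeronasal receptors in 95 of 276 (10.4%, 8.70 to 12.2), and both intervals include 8.78%. Counted under each gene, 258 of 11324 wide peaks over all genes were recurrent. By group the highest count was 3 of 84, in axon guidance, where 2 belonged to Dcc. Mesenchymal transcription factors had 2 of 49 and keratins 2 of 13, while cadherins and protocadherins had 1 of 182 and pan-neuronal genes 0 of 48. Counts this small are not read as a difference between groups.

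Lists of promoter regions with less signal (hypo) or more (hyper) than in MEFs were deposited for the other 5 libraries, all against the same MEF library. Hypo regions were listed for 44.3, 41.2, 41.9, 41.9 and 42.0% of genes with a wide peak, beside 43.7, 40.8, 40.6, 40.8 and 41.3% of all genes with an intergenic MEF peak. Hyper regions were listed for 14.7, 13.51, 19.2, 7.71 and 8.79%, beside 13.9, 12.7, 19.6, 8.39 and 8.59%. Genes listed as hypo in all 5 made up 30.4% (29.1 to 31.6) of genes with a wide peak, beside 29.5%, and those listed as hyper in all 5 made up 0.498% (0.328 to 0.723), beside 0.345%. These shares are near those of all genes and are no result about the wide peaks. Of the wide peaks themselves 6 to 9 per comparison lay on a hypo region (0.0536 to 0.0803%) and 0 to 1 on a hyper region, beside 73 to 88 (0.0625 to 0.0754%) and 4 to 12 of the narrower peaks. Of 1005 miRNA hairpins, 2 lay inside a wide peak, Gm51274 and Mir3965. The same count is not at hand for the narrower peaks, so this one is not read as a result about the wide peaks.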

How the data were processed

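Each hMeDIP library had 1 deposited peak list, and 10 promoter lists set the other 5 libraries against MEFs. The 2 input libraries were not analysed on their own. Reads were handled with CASAVA and Bowtie2 2.1.0 on mm10, per the submitters' processing notes. Peak caller, settings and the input behind each list are not named in the sources used here. The tag count at each summit is a whole number that the authors deposited per peak. The fold enrichment is a ratio the authors deposited, and the deposited column headed q-value holds −log10 of a q-value, read so from its values. The promoter lists carry a p-value and a q-value from the authors and a deposited signal per library, which were not used beyond membership.

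The rule, the gene lists and the tests were chosen with earlier results of these data known. A peak with several genes entered once by its identifier, and under each gene where genes were counted. Tables were made with python 3.11.15, numpy 2.4.6, pandas 2.3.3 and scipy 1.17.1, and drawn with matplotlib 3.10.9. Shares have exact Clopper-Pearson intervals and medians exact order-statistic intervals, both at 95%. A background within 0.01 of its commonest value was taken as the lowest. The overlap and cluster steps were checked on simulated data. Named peaks and genes were, without predicted genes, the 10 highest by fold enrichment, the 10 genes with the most wide peaks and the leading genes of each list, and, with predicted genes, those on the most lists, the longest, the largest clusters and those closest to and farthest from a TSS. Since 12 peaks tied on all 5 lists, 2 beyond 10 were named. Alternatives changed the length, fold, overlap, window and gap limits.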

Additional observations from a re-analysis of the deposited data

How the results depend on the processing

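No paired analysis was possible because each group had 1 library and no replicate numbers were shared. Of 45 values recomputed under another setting, 22 stayed within counting error, or within 1.5 times for counts, and no direction turned, while 23 moved. With a length of at least 800 bp, 4799 wide peaks were left, 0.396, 1.54, 1.69, 1.85 and 1.27% of them met the lists of 1, 3, 5 and 7 dpi and primary neurons, 6.33% had another within 10 kb, and 109 genes had at least 5. With a fold enrichment of at least 6 the shares were 0.0535, 0.830, 0.9501, 1.11 and 0.549%, and 256 genes had at least 5. With the lowest background alone, a setting added after the data were seen, they were 0.0274, 0.371, 0.384, 0.508 and 0.165%. The narrower peaks on that background had 0.00711, 0.0498, 0.0510, 0.0664 and 0.0130%, with intervals that overlapped those of the wide peaks at 1 dpi only. Gaps of at most 5 and 50 kb put 6.36 and 43.1% of wide peaks beside another. Within 100 kb of the TSS 10 genes had at least 5, so the 499 rest on distant peaks. Genes with a wide peak within 50 kb were hypo in all 5 comparisons in 31.8% of cases. No share of all genes with an intergenic MEF peak within 50 kb is at hand beside it, so it is not read further. Fewer peaks or another limit enter by construction, and the cause was otherwise not tested. The recurrence shares kept within counting error with an overlap of at least 240 bp, the 480 bp window and other lists limited to 500 tags.

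The planned CpG content of the wide peaks was not run, since only promoter windows were at hand. Library depth was not given, so recurrence cannot be told apart from how many peaks each list holds, and a wide peak off another list is not shown to lack 5hmC there. Summit tags as low as 22 limit single peaks.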
